A study of Mus musculus with 91 samples.

Results

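The germline cluster of *Mir741*, *Mir871*, *Mir880* and *Mir881* is a run of X-linked microRNA (miRNA) genes that is known for its expression in testis. The 8 mature miRNAs described here were mmu-miR-881-3p, mmu-miR-881-5p, mmu-miR-880-3p, mmu-miR-871-3p, mmu-miR-741-3p, mmu-miR-743a-3p, mmu-miR-470-5p and mmu-miR-463-5p, named below without the prefix for mouse, out of 1504 mature miRNAs in the main count table. They were chosen by name, as members of the cluster that holds *miR-881*, after *miR-881-5p* had stood out in the E6.5 epiblast of mutant embryos. Mutant and control values of all 8 in the E6.5 epiblast, and comparisons that use the E6.5 epiblast controls, are therefore given as a description with no test.

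Mature miRNAs are short RNAs cut from hairpin precursors, and each hairpin can give an arm from its 5′ side (5p) and an arm from its 3′ side (3p). Bases 2 to 8 of a mature miRNA, the seed, pair with target mRNAs, which are then repressed. DNA methylation, placed by DNMT3A and DNMT3B and copied at replication by DNMT1, is known to keep many germline genes silent in somatic cells. The question addressed was whether these germline miRNAs were higher in embryos without DNA methyltransferases.

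Small RNA was read by CAS-seq, a library method for picogram amounts of RNA, in 91 mouse libraries, of which 62 were dissected tissue of natural embryos. Natural embryos came from B6D2F1 females mated to *Oct4-EGFP* males of C57BL/6J background, and were split at E6.5 and E7.5 into extraembryonic ectoderm (Exe, the trophoblast part) and epiblast (Epi, which forms the embryo proper). Each tissue and stage had control, *Dnmt1*-KO and *Dnmt3a/3b*-DKO embryos and embryos edited in all 3 genes (*Dnmt*-null), in which a base editor injected into zygotes wrote stop codons into the genes. There were 4 libraries per group, except for 3 each of E7.5 Epi control and E7.5 Epi *Dnmt*-null. Semi-cloned (SC) embryos were made by injecting oocytes with androgenetic haploid embryonic stem cells (AG-haESCs), which carry a sperm genome and replace the sperm. The study describes the *Dnmt*-null and DKO embryos of E6.5 below as epiblast, and the labels give no dissected tissue for either stage. At E6.5 they were WT, *Dnmt*-null, DKO or DKO;*Dnmt*-null, where DKO here means that the AG-haESCs lacked the *H19* and *IG* differentially methylated regions and not *Dnmt3a/3b*. At E7.5 the SC control, also derived from DKO cells, was set against Mir-6KO;*Dnmt*-null, in which the *Dnmt* genes were edited and 6 miRNA loci of other chromosomes (*let-7b*, *miR-127*, *miR-369*, *miR-409*, *miR-540* and *miR-541*) were deleted on the paternal copy. Each SC group had 3 libraries. AG-haESC lines of C57BL/6 strain, cultured with the MEK and GSK3β inhibitors called 2i, were WT (3 libraries), O48 (3, the DKO line), Mir-6KO (2, clones of O48 with the 6 deletions) and 408 (3, genotype not in the labels). The labels give neither the sex of the embryos nor how many embryos made up a library, and do not say that replicates came from separate litters, so that p-values measure the spread between these libraries, which may be technical. *Dnmt* mRNA was not measured here, and the loss of the edited genes cannot be checked from these counts.

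Library totals ran from 45242 to 26970637 counts, and E6.5 natural embryos had the shallowest libraries. Summed *miR-302/367* markers of epiblast separated Epi (E7.5, 105333 to 212606 counts per 1000000 counts of the library, CPM) from Exe (at most 45944 CPM at E7.5), and a sum of 5 *Sfmbt2* cluster miRNAs of trophoblast did the opposite. Libraries of 3 groups stood apart. E6.5 Exe *Dnmt1*-KO replicate 4 had an epiblast sum of 5617 CPM against 26048 to 27857 CPM in the rest of its group. Replicate 3 of the E6.5 SC WT embryos had an epiblast sum of 21252 CPM against 195381 and 214514 CPM in the other two. The libraries labelled AG-haESC Mir-6KO went against their label: the *miR-302/367* sum was 239331 to 268002 CPM against 924 to 1669.9 CPM in O48, and *miR-127-3p*, which should be deleted, averaged 40291 CPM against 567 CPM in O48. Over 1269 miRNAs these libraries had their highest median correlation with the E7.5 SC control (Pearson's r = 0.909) and a lower one with O48 (0.759). Each result that rests on these libraries is given with that stated.

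The 8 mature sequences, from RefSeq (GRCm38.p6), are shown 5′ to 3′ because they carry the identity of the members, with the seed in capitals.
*miR-881-3p*: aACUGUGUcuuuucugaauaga
*miR-881-5p*: cAGAGAGAuaacagucacaucu
*miR-880-3p*: uACUCCAUccucucugaguaga
*miR-871-3p*: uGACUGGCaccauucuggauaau
*miR-741-3p*: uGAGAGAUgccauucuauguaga
*miR-743a-3p*: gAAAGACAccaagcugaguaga
*miR-470-5p*: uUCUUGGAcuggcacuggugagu
*miR-463-5p*: uACCUAAUuuguuguccaucau
The 8 seeds were all different. The only one found in another mature mouse miRNA was that of *miR-743a-3p*, which it shares with its neighbour *miR-743b-3p*. These near copies differ at 3 of 22 bases, and reads could be split between them:
*miR-743b-3p*: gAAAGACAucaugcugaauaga
Of the 8 members, 3 share their last bases: *miR-880-3p*, *miR-741-3p* and *miR-743a-3p* end in GUAGA, as did 7 of the 19 3p arms of the cluster and 10 of 1679 mature mouse miRNAs (0.596%).

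All 8 members lie on the minus strand of the X chromosome, within 37269 bp at chrX:66776757-66814025 (GRCm38.p6). They come from 7 hairpins, since *Mir881* gives both of its arms. In the direction of transcription the order is *Mir470* (66813951 to 66814025), *Mir871* (66810428 to 66810504), *Mir881* (66801944 to 66802021), *Mir880* (66800530 to 66800607), *Mir463* (66799223 to 66799297), *Mir741* (66796805 to 66796875) and *Mir743* (66776757 to 66776818). No protein-coding gene overlaps this span, so the hairpins are in no coding exon or UTR. The nearest protein-coding genes are *Slitrk2*, 115.4 kb away, and *Gm1140*, 868.9 kb away, and *Fmr1*, after which the wider cluster is often named, is 1864.5 kb away. The cluster has 21 annotated hairpins, all on the minus strand, and 19 of them form a group between 66776757 and 66839125.

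The members were present in nearly every library, at unequal levels. *miR-880-3p*, *miR-871-3p*, *miR-741-3p* and *miR-470-5p* had counts in 91 of 91 libraries, and *miR-743a-3p* in 89. *miR-881-3p* was counted in 82, *miR-463-5p* in 82 and *miR-881-5p* in 77. In E7.5 Exe controls the 4 abundant members averaged 492 ± 82.0 CPM (*miR-880-3p*), 1246 ± 559 CPM (*miR-871-3p*), 1682 ± 650.0 CPM (*miR-741-3p*) and 1972 ± 694 CPM (*miR-470-5p*; SD, n = 4). Both arms of *Mir881* and *miR-463-5p* stayed under 60 CPM on average in the same libraries, so that in the shallow E6.5 libraries a few reads decided whether they were seen.

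The share of all miRNA counts that came from the 8 members was lowest in the epiblast of E7.5 control embryos and was higher in every mutant. In E7.5 Epi the 3 controls gave 0.0611%, 0.141% and 0.0399%. The *Dnmt1*-KO libraries gave 0.706%, 0.696%, 0.655% and 0.735%, the *Dnmt3a/3b*-DKO libraries 1.06%, 0.920%, 1.36% and 1.12%, and the *Dnmt*-null libraries 0.954%, 1.19% and 1.12%. No mutant library overlapped the controls, and the lowest mutant was above the highest control by more than the whole range of the controls. The means were 0.0807% ± 0.0533 (SD, n = 3) in controls, 0.698% ± 0.0334 in *Dnmt1*-KO (n = 4), 1.12% ± 0.184 in *Dnmt3a/3b*-DKO (n = 4) and 1.09% ± 0.122 in *Dnmt*-null (n = 3). The *Dnmt1*-KO libraries were all below those of the other mutants, while DKO and *Dnmt*-null overlapped.

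**Figure D1:**
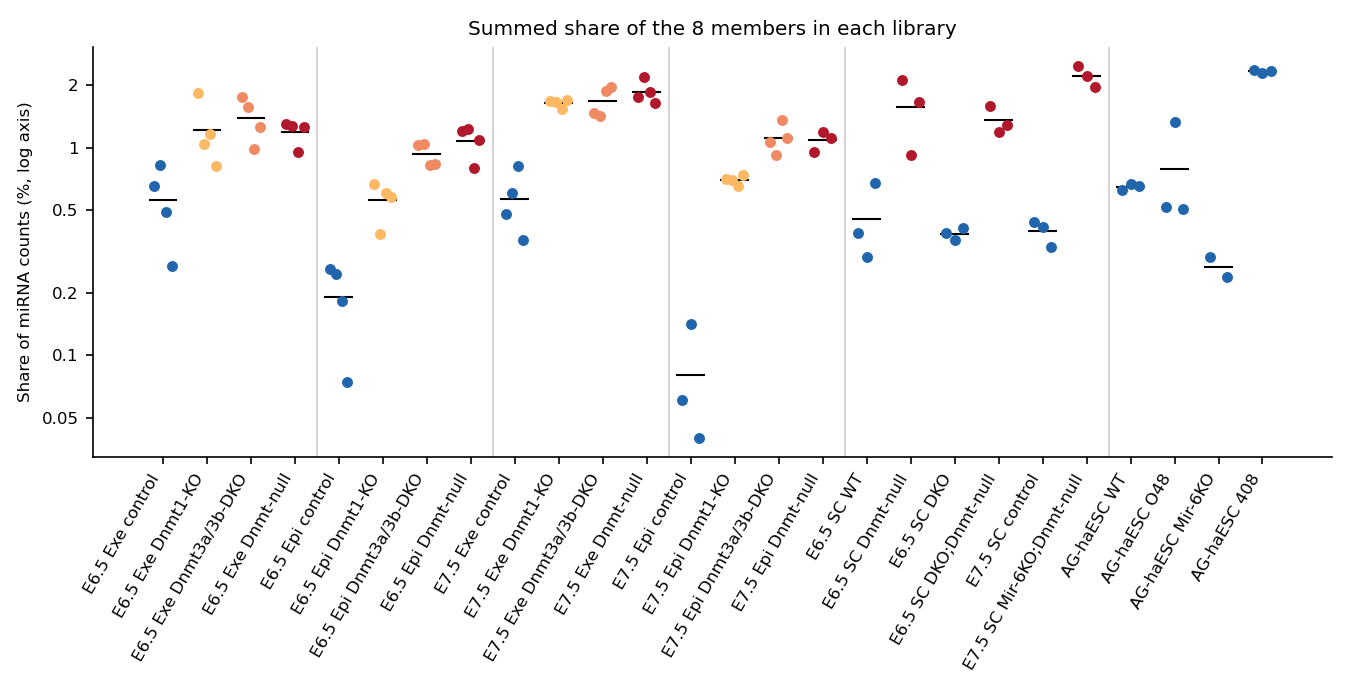
Summed share of the 8 members in all miRNA counts (percent, log axis) for every library, by group; each point is a library and the black bar is the group mean. The 3 E7.5 Epi controls lie at or below 0.141% and all E7.5 Epi mutants at or above 0.655%.

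In Exe the controls started higher. At E7.5 the Exe controls gave 0.477%, 0.603%, 0.815% and 0.358%, and the 12 mutant libraries lay between 1.42% and 2.18% with no overlap. At E6.5 the Exe controls gave 0.651%, 0.828%, 0.489% and 0.268%, *Dnmt1*-KO 1.83%, 1.04%, 1.16% and 0.812%, *Dnmt3a/3b*-DKO 1.74%, 1.57%, 0.982% and 1.26%, and *Dnmt*-null 1.30%, 1.28%, 0.953% and 1.25%. At E6.5, 1 *Dnmt1*-KO library thus overlapped the controls. In E6.5 Epi, the tissue that brought the cluster up, the controls gave 0.261%, 0.245%, 0.183% and 0.0745%, and the group means were 0.560% in *Dnmt1*-KO, 0.934% in *Dnmt3a/3b*-DKO and 1.08% in *Dnmt*-null. Placed in order, the natural embryo means ran from E7.5 Epi control (0.0807%) through E6.5 Epi control (0.191%), the E6.5 and E7.5 Exe controls (0.559% and 0.563%, which overlapped) and E6.5 Epi *Dnmt1*-KO (0.560%) up to E7.5 Exe *Dnmt*-null (1.86%). Neighbours in the upper part of that order, such as E7.5 Exe *Dnmt1*-KO (1.65%) and *Dnmt3a/3b*-DKO (1.68%), overlapped in their libraries.

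Among the tissues tested in natural embryos, the median change of the members was highest in E7.5 Epi. Differential expression was tested with edgeR across all miRNAs of a tissue and stage, and a miRNA was called with a log2 fold change above 0.5 in size and an unadjusted p below 0.05, the thresholds of the study; Benjamini-Hochberg adjusted p-values over all miRNAs tested stand beside them. In E7.5 Epi 6 of 8 members were called higher in *Dnmt1*-KO, 8 of 8 in *Dnmt3a/3b*-DKO and 7 of 8 in *Dnmt*-null, where 13.5%, 12.9% and 19.9% of all 652 tested miRNAs were called higher. By adjusted p, 6 of 8 were called in each, against 7.98%, 5.83% and 15.6% of all miRNAs. The calls include *miR-881-5p*, with no count in the controls, and *miR-881-3p* in DKO and *Dnmt*-null, with 14 counts over the controls. Both passed the count filter only through the mutant libraries, so their calls are not independent of that selection. No member was called lower, against 11.5%, 4.91% and 20.6%. Every mutant library lay above every control for 6, 8 and 7 members, as it did for 10.8%, 11.8% and 17.0% of the miRNAs with a count. The median log2 fold change of the 8 members was 2.95, 3.90 and 3.51, which did not move when *miR-881-5p* was set to its lower bound, and the median over all tested miRNAs was −0.15, 0.02 and −0.19.

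*miR-470-5p*, the first of the members in the direction of transcription, was counted at 188, 517 and 146 CPM in the E7.5 Epi controls and at 2951, 2759, 2499 and 2475 CPM in *Dnmt1*-KO. It reached 4471, 3390.3, 4826 and 4136 CPM in *Dnmt3a/3b*-DKO and 4695, 4894 and 4362 CPM in *Dnmt*-null. The lowest mutant library was well above the highest control. The log2 fold changes were 3.07 (SE 0.32, adjusted p = 7.21e-06), 3.82 (SE 0.34, adjusted p = 4.26e-07) and 3.82 (SE 0.34, adjusted p = 7.58e-07).

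*miR-741-3p* was at 199.5, 398 and 139 CPM in the controls, 1422, 1662, 1662 and 2280.5 CPM in *Dnmt1*-KO, 2919, 2619.8, 4036 and 3209 CPM in *Dnmt3a/3b*-DKO, and 2082, 3214 and 3249 CPM in *Dnmt*-null. Again the mutants did not overlap the controls, and 1 *Dnmt1*-KO library overlapped *Dnmt*-null. The log2 fold changes were 2.66 (SE 0.30), 3.62 (SE 0.31) and 3.31 (SE 0.32), with adjusted p = 1.42e-05, 4.21e-07 and 1.23e-06. *miR-871-3p* was at 190.5, 359 and 78.9 CPM in the controls and between 1449.5 and 2919.7 CPM in the 11 mutant libraries. Its groups did not overlap with the controls either, and the log2 fold changes were 2.84, 3.42 and 3.20. *miR-880-3p* was at 20.6, 93.1 and 34.5 CPM in the controls and between 549.7 and 1193 CPM in the mutants, with log2 fold changes of 3.51, 4.08 and 3.59. All 6 of these changes of *miR-871-3p* and *miR-880-3p* passed the adjusted test.

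The less abundant members went from near the detection limit to clear counts. *miR-743a-3p* was at 2.58, 18.1 and 0 CPM in the controls, 115, 151, 127 and 187 CPM in *Dnmt1*-KO, 243, 356, 362 and 330.1 CPM in *Dnmt3a/3b*-DKO, and 293, 329.8 and 299.9 CPM in *Dnmt*-null. It had the largest fitted change among members seen in the controls, at log2 fold changes of 4.2 (SE 0.71), 5.45 (SE 0.75) and 5.24 (SE 0.76), with adjusted p = 0.000497, 7.28e-05 and 6.32e-05. *miR-881-5p* had no count in any of the 3 controls, which were the deepest libraries of this tissue at 1623256 to 2325698 counts. It was at 3.10, 13.8, 61.6 and 49.0 CPM in *Dnmt1*-KO, 35.1, 54.8, 126 and 39.2 CPM in *Dnmt3a/3b*-DKO, and 55.0, 57.4 and 25.0 CPM in *Dnmt*-null. Against 3 counts in each control library, the limit that a count of 0 allows, it was at least 20.2-fold, 40.5-fold and 29.0-fold higher. It passed the count filter only through the mutants, where it was high, so no p-value is given for it. All mutant libraries counted it, though the lowest *Dnmt1*-KO library was close to the limit.

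The other arm of the same hairpin and *miR-463-5p* were less certain. *miR-881-3p* was at 3.44, 3.19 and 0 CPM in the controls, 0, 0, 9.99 and 36.2 CPM in *Dnmt1*-KO, 28.3, 26.2, 57.9 and 44.0 CPM in *Dnmt3a/3b*-DKO, and 29.3, 30.7 and 28.6 CPM in *Dnmt*-null. *Dnmt1*-KO overlapped the controls and was not called, while the other mutants did not overlap them and were called with log2 fold changes of 3.98 (SE 1.47, adjusted p = 0.116) and 3.43 (SE 1.49, adjusted p = 0.0871). *miR-463-5p* was at 6.45, 21.8 and 0 CPM in the controls and at 31.7, 55.6, 102 and 99.4 CPM in *Dnmt3a/3b*-DKO, where it was called, higher by 2.85 on the log2 scale (SE 1.17, adjusted p = 0.172). In *Dnmt1*-KO and *Dnmt*-null its libraries overlapped the controls and it was not called. The call of *miR-463-5p* in DKO was lost when control replicate 1 or 3 or DKO replicate 3 or 4 was left out, at log2 fold changes of 2.65, 2.29, 2.64 and 2.66. That of *miR-881-3p* in *Dnmt*-null was lost without control replicate 2 or 3, DKO replicate 3 or *Dnmt*-null replicate 2, at 3.72, 2.89, 3.44 and 3.46.

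**Figure D2:**
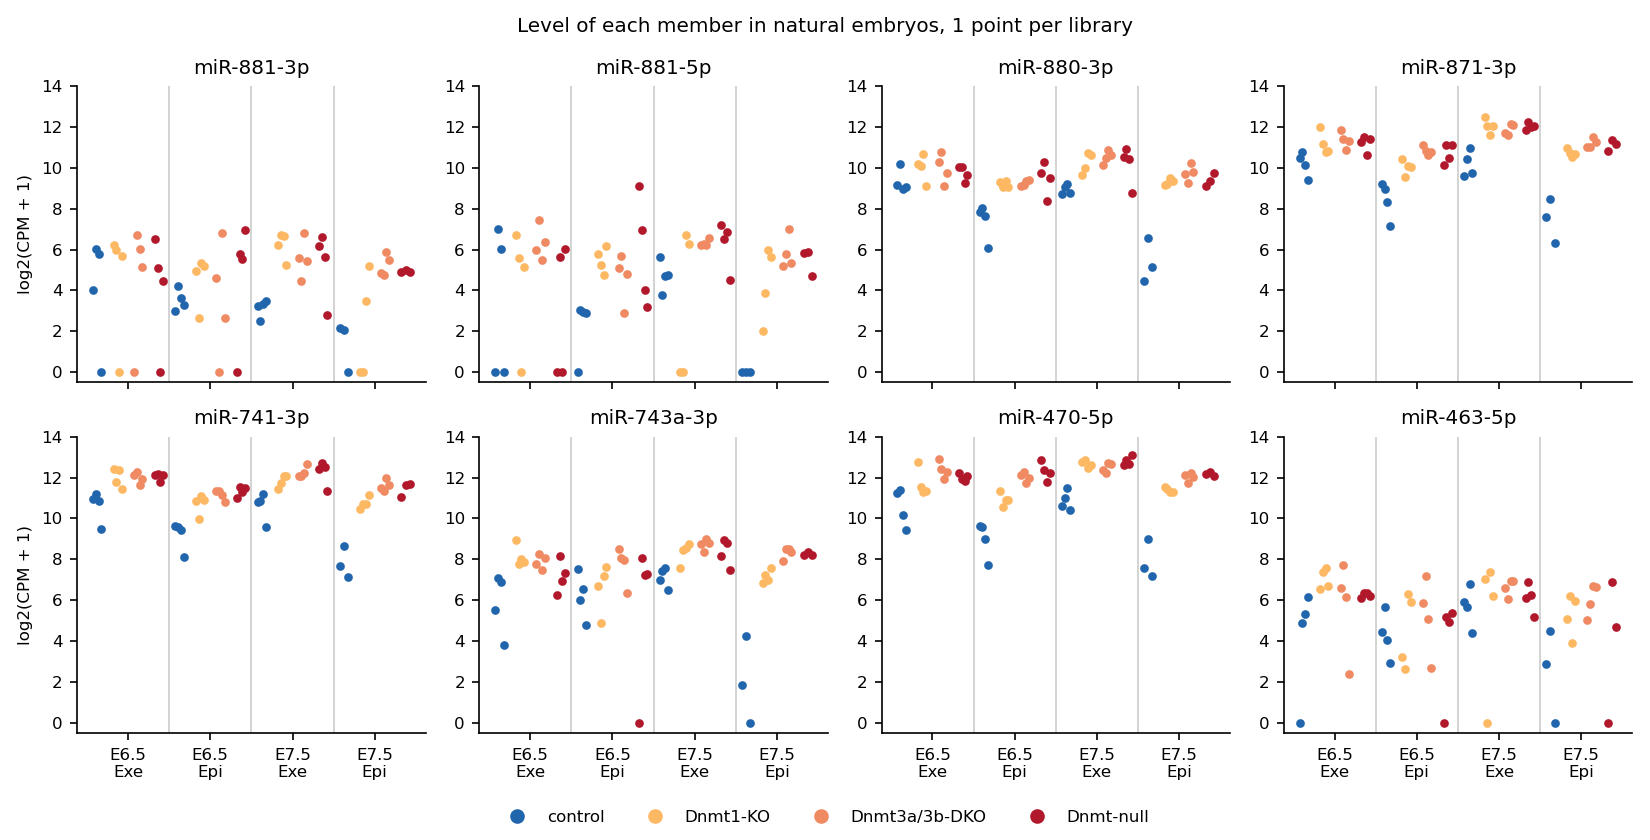
Level of each of the 8 members in every natural embryo library, as log2(CPM + 1), by tissue, stage and genotype (blue, control; yellow, *Dnmt1*-KO; orange, *Dnmt3a/3b*-DKO; red, *Dnmt*-null). In E7.5 Epi the controls of *miR-470-5p* (at most 517 CPM) lie apart from the mutants (at least 2475 CPM), and *miR-881-5p* is at 0 in all 3 controls.

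Control replicate 2 had the highest member share of the 3 E7.5 Epi controls. Without it 7, 8 and 7 members were called higher in the 3 mutants, with medians of 3.65, 4.42 and 4.11. Markers of trophoblast, where the members are more abundant, moved in the same direction in this tissue. The summed 5 markers were at 1780.4 to 2098 CPM in E7.5 Epi controls, 2299.6 to 2833 CPM in *Dnmt1*-KO, 2413 to 5019.7 CPM in *Dnmt3a/3b*-DKO and 3602 to 7750.3 CPM in *Dnmt*-null, with all 5 markers counted in each group. E7.5 Exe controls had 35141 to 45480.5 CPM of these markers and 1972 ± 694 CPM of *miR-470-5p* (SD, n = 4). *miR-470-5p* was at 4650.5 ± 269 CPM (n = 3) in E7.5 Epi *Dnmt*-null and at 7282 ± 1176 CPM (n = 4) in E7.5 Exe *Dnmt*-null. The Exe *Dnmt*-null libraries had 27159 to 46734 CPM of the trophoblast markers. The epiblast sum was 202279 to 212606 CPM in the controls, 135939 to 200375 CPM in *Dnmt1*-KO, 193250.5 to 203244 CPM in *Dnmt3a/3b*-DKO and 105333 to 164935 CPM in *Dnmt*-null. The part of cell composition in the member changes was not tested, and fewer cells of a type and less RNA per cell cannot be told apart in bulk libraries.

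In E7.5 Exe most members were higher in the mutants, from a higher control level. The members called there were not all those called in E7.5 Epi. Called higher were 6 of 8 members in each mutant, against 10.6% of 597 tested miRNAs in *Dnmt1*-KO, 6.7% in *Dnmt3a/3b*-DKO and 11.6% in *Dnmt*-null. By adjusted p the counts were 5, 5 and 6, against 4.19%, 3.02% and 6.87%. No member was called lower, against 6.2%, 1.51% and 7.87%. Every mutant library lay above every control for 5, 7 and 3 members, against 4.42%, 6.17% and 5.82% of the miRNAs with a count. The member medians were 1.30, 1.51 and 1.66 on the log2 scale. *miR-470-5p* was at 1566, 2043, 2919.8 and 1358 CPM in the controls, 7000.3, 7516, 5577 and 6286 CPM in *Dnmt1*-KO, 5293, 4808, 6774 and 6569 CPM in *Dnmt3a/3b*-DKO, and 6341, 7379.6, 6499.7 and 8908 CPM in *Dnmt*-null. No mutant library overlapped the controls, and the 3 mutants overlapped one another. Its log2 fold changes were 1.80 (SE 0.25, adjusted p = 0.000161), 1.52 (SE 0.25, adjusted p = 0.00201) and 1.93 (SE 0.25, adjusted p = 6.36e-05). *miR-871-3p* was at 764, 1366, 1986 and 867 CPM in the controls and between 3132 and 5814 CPM in the mutants, with log2 fold changes of 1.87, 1.57 and 1.78. *miR-741-3p* (1.17, 1.5 and 1.61) and *miR-880-3p* (1.39, 1.56 and 1.38) passed the adjusted test in all 3 mutants too, although *Dnmt*-null replicate 4, at 432 CPM of *miR-880-3p*, lay within the control range of 419 to 586 CPM.

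The rarer members were divided in E7.5 Exe. *miR-881-3p* was at 8.34, 4.67, 9.18 and 10.01 CPM in the controls, 74.6, 102, 101 and 36.6 CPM in *Dnmt1*-KO, 47.6, 21.1, 113 and 43.0 CPM in *Dnmt3a/3b*-DKO, and 71.3, 96.1, 48.6 and 5.94 CPM in *Dnmt*-null. All but the last library were above the controls, and the log2 fold changes were 3.33 (SE 0.81, adjusted p = 0.0202), 2.74 (SE 0.80, adjusted p = 0.0805) and 2.73 (SE 0.80, adjusted p = 0.0348). *miR-881-5p* from the same hairpin was at 48.4, 12.8, 24.6 and 26.0 CPM in the controls and 74.7, 75.6, 74.0 and 93.9 CPM in *Dnmt3a/3b*-DKO. Those groups did not overlap, but the log2 fold change of 1.48 (SE 1.09) was not called (adjusted p = 0.874), and neither were those of 0.68 in *Dnmt1*-KO, where 2 libraries had no count, and 1.71 in *Dnmt*-null. *miR-743a-3p* was called in all 3 mutants, at 1.22 (adjusted p = 0.0503), 1.5 (adjusted p = 0.0191) and 1.26 (adjusted p = 0.0282), and *miR-463-5p*, at 0.67, 0.71 and 0.30, in none. The trophoblast sum had medians of 39765 CPM in the controls, 30375 CPM in *Dnmt1*-KO, 37364 CPM in *Dnmt3a/3b*-DKO and 38728 CPM in *Dnmt*-null, so that it was not higher in the mutants. The epiblast sum was lower in all 3, with medians of 42882 CPM in the controls against 24500.3, 31114 and 20269.9 CPM, and its part in the member changes was not tested.

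At E6.5 the median Exe changes were smaller, and no member passed the adjusted test with all libraries. Of 7 members tested, 4 were called higher in *Dnmt1*-KO (4.26% of 376 miRNAs), 4 in *Dnmt3a/3b*-DKO (3.46%) and 3 in *Dnmt*-null (5.05%), with member medians of 0.97, 1.08 and 0.79. No member was called lower, against 4.52%, 5.59% and 7.98%. Every mutant library lay above every control for 4, 4 and 2 members, against 1.92%, 3.9% and 3.18% of the miRNAs with a count. By adjusted p, 0%, 0.266% and 0.266% of all miRNAs were called higher in this tissue, which has totals of 65751 to 418423 counts. *miR-741-3p* was at 1992, 2345, 1856 and 703 CPM in the controls, 5432, 3499, 5342 and 2787 CPM in *Dnmt1*-KO, 4400.0, 4897, 3132 and 3942 CPM in *Dnmt3a/3b*-DKO, and 4408, 4543, 3497 and 4446 CPM in *Dnmt*-null. The mutants did not overlap the controls, and the log2 fold changes were 1.17 (SE 0.29, adjusted p = 0.0928), 1.08 (SE 0.29, adjusted p = 0.0949) and 1.11 (SE 0.29, adjusted p = 0.0744). *miR-470-5p* (0.97, 1.52 and 1.09) and *miR-871-3p* (0.87, 0.96 and 0.76) were called in the 3 mutants, and *miR-743a-3p* in *Dnmt1*-KO (1.76) and *Dnmt3a/3b*-DKO (1.43). *miR-880-3p*, *miR-881-5p* and *miR-463-5p* were not called, and *miR-881-3p* was too rare to test. Several of these calls rested on single libraries. Without *Dnmt1*-KO replicate 4, the library low in epiblast markers and the lowest in member share of its group (0.812%), 5 of 8 members were called higher in *Dnmt1*-KO, 1 by adjusted p, with a median of 1.16. That of *miR-470-5p* in *Dnmt1*-KO fell to log2 fold changes of 0.57 to 0.82 and was lost without control replicate 3 or 4 or *Dnmt1*-KO replicate 1, and that of *miR-871-3p* in *Dnmt1*-KO, at 0.62 and 0.68, without *Dnmt1*-KO replicate 1 or control replicate 4. The call of *miR-871-3p* in *Dnmt*-null was lost without control replicate 3 or 4, at 0.71 and 0.57. That of *miR-743a-3p* in *Dnmt1*-KO was lost without *Dnmt1*-KO replicate 1, at 1.5, and that in *Dnmt3a/3b*-DKO without any of 8 libraries, at 1.08 to 1.52.

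**Figure D3:**
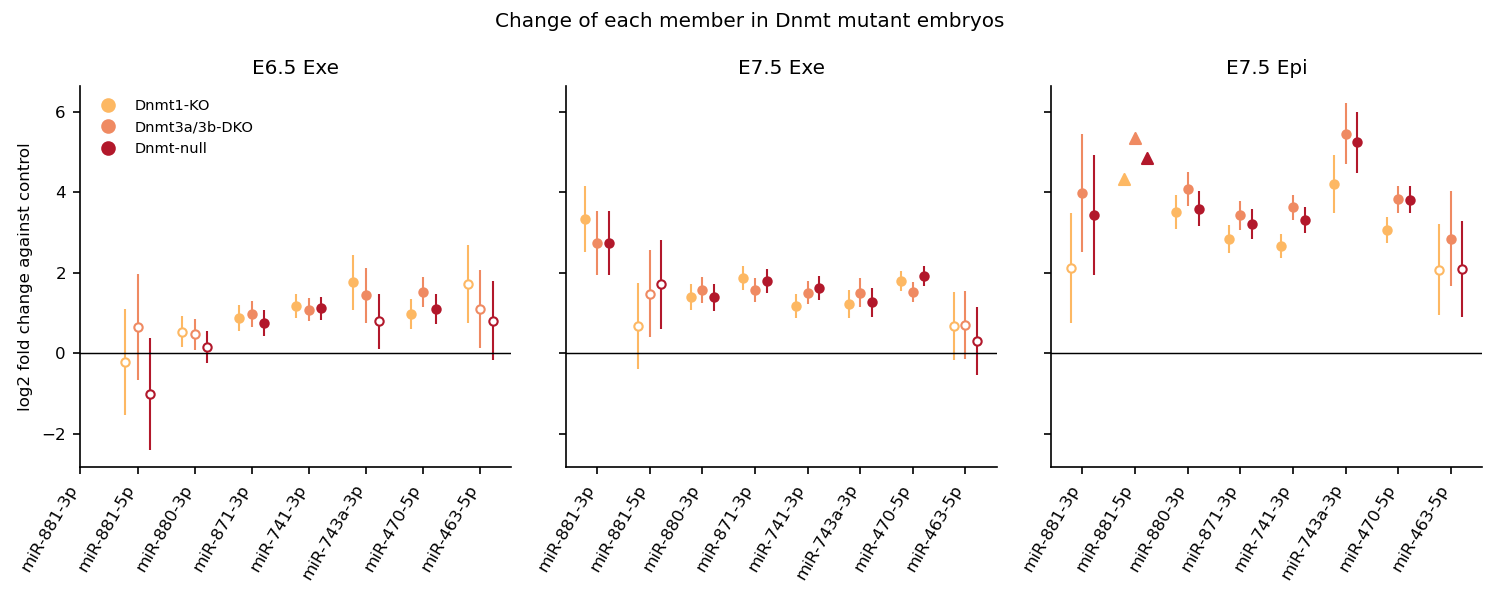
Log2 fold change against control (± SE) of each member in *Dnmt1*-KO, in *Dnmt3a/3b*-DKO and in *Dnmt*-null, in E6.5 Exe, E7.5 Exe and E7.5 Epi; filled points were called, open points were not, and triangles are lower bounds. Changes of *miR-470-5p* lie at 0.97 to 1.52 in E6.5 Exe, 1.52 to 1.93 in E7.5 Exe and 3.07 to 3.82 in E7.5 Epi.

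Whether the change differed between the tissues was tested as an interaction over 658 miRNAs, a test added after the values had been seen. The change in *Dnmt3a/3b*-DKO was larger in E7.5 Epi than in E7.5 Exe for *miR-470-5p* by 2.15 on the log2 scale (SE 0.49, adjusted p = 0.0172), *miR-741-3p* by 1.98 (SE 0.45, adjusted p = 0.0172), *miR-880-3p* by 2.38 (SE 0.58, adjusted p = 0.0219) and *miR-743a-3p* by 3.8 (SE 0.97, adjusted p = 0.0325). These 4 were among the 0.76% of all miRNAs with a larger change in Epi by adjusted p. In *Dnmt*-null *miR-743a-3p* passed, with a difference of 3.91 (SE 1.0, adjusted p = 0.0495) where 0.304% of all miRNAs did, and *miR-470-5p* (1.82) and *miR-880-3p* (2.15) did not, both with adjusted p = 0.0533. No member passed in *Dnmt1*-KO (0% of all miRNAs), where *miR-871-3p* differed by 0.68 (SE 0.50). Between E7.5 Exe and E6.5 Exe no member passed in any mutant, against 0.152% of all miRNAs in *Dnmt1*-KO and 0% in the others.

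The mutants were also compared with one another. Compared with *Dnmt3a/3b*-DKO, *Dnmt*-null had 0 members called in either direction in E7.5 Epi (7.82% of all miRNAs higher, 13.5% lower), E7.5 Exe (4.02% and 5.53%) or E6.5 Exe (0.532% and 1.06%), at unadjusted p below 0.05 (edgeR). Compared with *Dnmt1*-KO, *Dnmt*-null had 2 members called higher in E7.5 Epi, *miR-470-5p* at 0.75 (SE 0.28, adjusted p = 0.105) and *miR-741-3p* at 0.65 (SE 0.27, adjusted p = 0.138). There 10.4% of all miRNAs were called higher, 4.75% by adjusted p, and 9.66% lower. The first was lost without *Dnmt*-null replicate 1, at 0.69, and the second without *Dnmt*-null replicate 2 or 3 or *Dnmt1*-KO replicate 1 or 3, at 0.50 to 0.62. In Exe 0 members were called between *Dnmt*-null and *Dnmt1*-KO, against 7.87% of miRNAs higher and 7.04% lower at E7.5, and 0.798% and 2.93% at E6.5. Without E7.5 Exe *Dnmt*-null replicate 4, 1 member was called higher than in *Dnmt1*-KO.

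In the control embryos the members were more abundant in Exe than in Epi. At E7.5, 7 of 7 tested members were called higher in Exe controls, 6 of them by adjusted p, against 25.3% and 21.9% of 558 miRNAs. Every Exe library lay above every Epi library for 7 of the 8 members, as for 17.2% of the miRNAs with a count. The members had a median log2 difference of 2.72, and of 3.42 without Epi control replicate 2. *miR-881-5p*, with no count in the Epi controls, is among the members called. *miR-470-5p* was at 1358 to 2919.8 CPM in Exe and 146 to 517 CPM in Epi, with no overlap and a log2 difference of 2.72 (SE 0.55, adjusted p = 0.000719). *miR-741-3p* differed by 2.69, *miR-871-3p* by 2.49, *miR-880-3p* by 3.24 and *miR-743a-3p* by 4.30, and Exe had at least 17.7 times as much *miR-881-5p*. *miR-463-5p*, at 2.56 (SE 1.18, adjusted p = 0.109), was called without the adjustment only, and that call was lost without any of 10 libraries, at 1.67 to 2.68. At E6.5 the values are a description, since the Epi controls had entered the choice of the members. *miR-470-5p* was at 2464, 2669, 1143 and 690.4 CPM in E6.5 Exe and 779, 772, 503 and 211 CPM in E6.5 Epi. The lowest Exe library lay within the Epi range, and the log2 difference was 1.54. *miR-741-3p* differed by 1.37, *miR-871-3p* by 1.59 and *miR-880-3p* by 1.81. *miR-743a-3p* was at 45.6, 137, 119 and 12.8 CPM in Exe and 182, 64.0, 93.8 and 26.2 CPM in Epi, which overlapped, with a difference of −0.26.

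Between E6.5 and E7.5 no member was called in Exe controls. At unadjusted p below 0.05 (edgeR) 0 of 7 were called in either direction, with a median of 0.03, against 16.3% of miRNAs higher and 8.96% lower. The Epi controls are again described only. *miR-880-3p* was at 224, 263, 199 and 65.4 CPM at E6.5 and 20.6, 93.1 and 34.5 CPM at E7.5, which overlap through the lowest E6.5 library, and its log2 difference was −1.90. That of *miR-741-3p* was −1.34 and that of *miR-743a-3p* was −3.68. The median over the members was −1.34, and −2.46 without E7.5 Epi control replicate 2. *miR-881-5p* had 2, 3 and 3 counts, near 7 CPM, in 3 of 4 libraries at E6.5, which is at the limit of 3 counts. It had no count in the E7.5 controls. The difference between the tissues in the change with stage was not tested. Among the 4 E6.5 Epi controls the member share and the trophoblast sum were both lowest in replicate 4. The shares of 0.261%, 0.245%, 0.183% and 0.0745% stood beside sums of 15167, 23492, 6217 and 5109 CPM, and the part of trophoblast cells in these values was not tested.

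In E6.5 Epi itself the values were as follows, with no test. *miR-881-5p* was at 0, 7.11, 6.70 and 6.54 CPM in the controls, 53.3, 36.5, 26.2 and 71.7 CPM in *Dnmt1*-KO, 33.0, 50.7, 6.45 and 26.6 CPM in *Dnmt3a/3b*-DKO, and 553, 124, 15 and 8.12 CPM in *Dnmt*-null. The highest of these came from the shallowest library of the series, with 45242 counts, in which 3 counts are worth 66.3 CPM, and was 25 counts. The values of 15 and 8.12 CPM in *Dnmt*-null and 6.45 CPM in *Dnmt3a/3b*-DKO were 1 count each. The controls above 0 were 2, 3 and 3 counts, at the limit. *miR-881-3p* was at 6.99, 17.8, 11.2 and 8.72 CPM in the controls and at 0, 53.2, 45.0 and 122 CPM in *Dnmt*-null. *miR-470-5p* was at 779, 772, 503 and 211 CPM in the controls and at 7427, 5363, 3466 and 4806 CPM in *Dnmt*-null. Fitted log2 fold changes of the 7 members in the fit ran from 0.24 (*miR-463-5p*) to 4.71 (*miR-881-5p*) in *Dnmt*-null, and the 4 abundant members were at 1.94 to 3.13. The epiblast sum was 130389 to 200354 CPM in the controls, 130392 to 158413 CPM in *Dnmt1*-KO and 109506 to 158754 CPM in *Dnmt3a/3b*-DKO. In *Dnmt*-null it was 48473 to 100114 CPM, below every control, and its part in the member values was not tested.

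SC embryos gave a separate set of samples. At E6.5, *Dnmt*-null SC embryos had 6 of 8 members called higher than WT, 0 by adjusted p, against 9.98% and 1.52% of 461 miRNAs, with a member median of 1.60. *miR-470-5p* was at 1106, 494 and 1495 CPM in WT and 5446, 2198 and 4302 CPM in *Dnmt*-null, which did not overlap. Its log2 fold change was 1.60 (SE 0.55, adjusted p = 0.196). *miR-741-3p* was at 1337, 1108 and 3028 CPM in WT and 7269.8, 2903 and 5779 CPM in *Dnmt*-null, which did overlap, and was not called at 1.17 (adjusted p = 0.289). The other 7 members did not overlap, as was true of 12.8% of the miRNAs with a count. The calls of *miR-470-5p*, *miR-880-3p* and *miR-881-5p* were lost without WT replicate 1, at 1.42, 0.96 and 1.72, and without *Dnmt*-null replicate 1. WT replicate 3, the library low in epiblast markers, had the highest member share of its group (0.674% against 0.390% and 0.299%). Without it 8 of 8 members were called higher, 7 by adjusted p, with a median of 2.0. *Dnmt*-null replicate 2 had the highest trophoblast sum of the SC embryos, 38699 CPM, and without it 7 members were called, 1 by adjusted p, with a median of 1.90. The epiblast sum was 82565 to 122808 CPM in *Dnmt*-null, below the 214514 and 195381 CPM of WT replicates 1 and 2, and its part in these values was not tested.

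No member passed the test between SC DKO embryos, which lacked the *H19* and *IG* regions, and WT. SC DKO embryos had shares of 0.388%, 0.357% and 0.412%, within the WT range, and 0 of 8 members were called higher or lower than in WT at unadjusted p below 0.05 (edgeR; 3.69% of miRNAs higher, 9.33% lower). The member log2 differences had a median of −0.30 and ran from −0.78 to 1.44, and without WT replicate 3 the median was 0.21 and 1 member was called higher. When the *Dnmt* genes were edited on top of the deletions, 8 of 8 members were called higher and 8 of 8 by adjusted p, against 15.9% and 14.9% of 603 miRNAs. The DKO;*Dnmt*-null shares were 1.59%, 1.2% and 1.29%, all above those of DKO. *miR-470-5p* was at 892, 873 and 983 CPM in DKO and 3426, 2648 and 3017 CPM in DKO;*Dnmt*-null, higher by 1.63 on the log2 scale (SE 0.10, adjusted p = 1.19e-10). Levels of *miR-881-5p* were 17.7, 19.7 and 23.9 CPM against 119, 119 and 121 CPM, higher by 2.42 (SE 0.26, adjusted p = 4.53e-07). The groups did not overlap for any of the 8 members, as was true of 18.9% of all miRNAs. The epiblast sum was 130119 to 147052 CPM in DKO;*Dnmt*-null and 177971 to 196784 CPM in DKO, and the trophoblast sum was 16304 to 21403 CPM and 13236 to 15076 CPM. Neither overlapped between the groups, and their part in the member changes was not tested. The DKO;*Dnmt*-null counts were deposited in a table of their own, and a difference between the tables cannot be told apart from that between the groups.

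At E7.5, Mir-6KO;*Dnmt*-null SC embryos had shares of 2.48%, 2.21% and 1.96% against 0.441%, 0.416% and 0.332% in the SC control, at 13306003 to 26970637 counts. Called higher were 7 of 8 members, 4 by adjusted p, against 5.81% and 2.74% of 585 miRNAs, with a median of 2.28. *miR-470-5p* was at 1506, 1415 and 877.9 CPM in the control and 8065, 7249 and 6669 CPM in the mutant (log2 fold change 2.31, SE 0.21, adjusted p = 0.000577). *miR-741-3p* (2.29), *miR-871-3p* (2.28, both with adjusted p = 0.000362) and *miR-880-3p* (1.64, adjusted p = 0.0129) were the others to pass. The calls of *miR-463-5p* (5.34) and *miR-881-3p* (2.06) did not pass the adjusted test and were lost without several single libraries, at 4.76 to 5.34 and 1.63 to 2.45. *miR-881-5p*, at 25.3, 4.50 and 0 CPM against 15.5, 129 and 80.0 CPM, overlapped and was not called (2.80, SE 1.82). The other 7 did not overlap, as was true of 9.52% of the miRNAs with a count. The epiblast sum was 77546 to 170777 CPM in the mutant and 178106 to 220309 CPM in the control, and the trophoblast sums of 2719.7 to 15188 CPM and 4354 to 12042 CPM overlapped. The editing and the 6 deletions were changed together here, so their parts cannot be told apart.

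**Figure D4:**
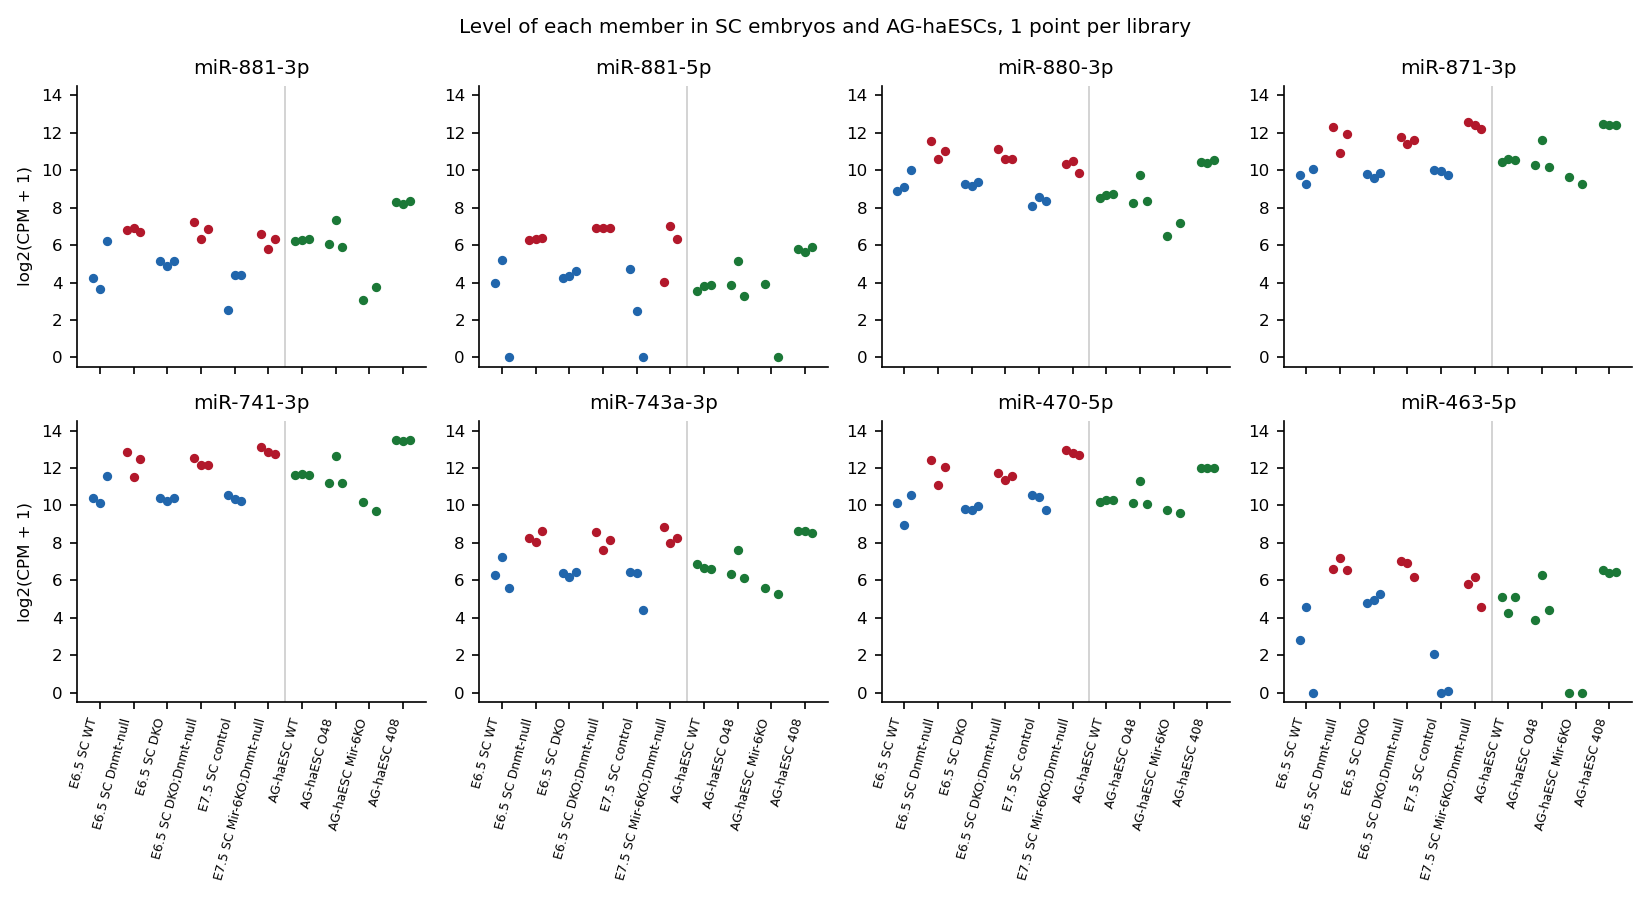
Level of each member in every SC embryo and AG-haESC library, as log2(CPM + 1); blue, SC embryos without edited *Dnmt* genes; red, SC embryos with edited *Dnmt* genes; green, cells. In E6.5 SC embryos *miR-881-5p* lies at 17.7 to 23.9 CPM in DKO and 119 to 121 CPM in DKO;*Dnmt*-null, and the 408 cells have the highest *miR-741-3p*.

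AG-haESCs expressed the members without any edit of the *Dnmt* genes. The WT cells had shares of 0.627%, 0.671% and 0.651%, near those of Exe controls, and O48 had 0.519%, 1.33% and 0.506%. No member was called higher or lower in O48 than in WT at unadjusted p below 0.05 (edgeR; 4.27% of 773 miRNAs higher, 16.4% lower). The member median was 0.34 while that of all miRNAs was −0.28, and without O48 replicate 2, the high library, the member median was −0.27. In the libraries labelled AG-haESC Mir-6KO 7 of 8 members were called lower than in O48, all 7 by adjusted p, against 36.6% and 31.4% of miRNAs. The median was −2.18 where all miRNAs had −0.82, and without O48 replicate 2 it was −1.53, with 7 members called lower. *miR-463-5p* had no count in either library and was at least 136-fold lower than the O48 mean. The O48 values were 13.5, 19.9 and 75.7 CPM, the last in the high library, so the bound leans on that library. Since these libraries had embryo-like markers, the difference cannot be read as one between genotypes of the cells.

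The members' proportions within their sum differed between groups. *miR-741-3p* made up 48.9% of the members' counts in WT AG-haESCs and 26.0% in E7.5 Epi *Dnmt*-null, and *miR-470-5p* made up 18.7% and 43.1% in the same groups (group means). The arms of *Mir881* also differed in order: *miR-881-3p* was at 77.3 ± 2.49 CPM and *miR-881-5p* at 12.6 ± 1.60 CPM in WT AG-haESCs (SD, n = 3), and at 8.05 ± 2.36 and 28 ± 14.8 CPM in E7.5 Exe controls (n = 4). These shifts between groups were not tested.

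Most tested arms of the rest of the cluster moved in the same direction as the members. Of the 30 other mature arms, 19 could be tested in E7.5 Epi. Called higher were 17 in *Dnmt1*-KO, 17 in *Dnmt3a/3b*-DKO and 16 in *Dnmt*-null, against 13.5%, 12.9% and 19.9% of all tested miRNAs. The medians were 2.64, 3.55 and 3.40 where arms with no count in the controls were set to their lower bound. Such arms passed the count filter only through the mutants. The counts of arms also hold *miR-465a-3p*, *miR-465b-3p* and *miR-465c-3p* as separate arms. In E7.5 Exe 12, 14 and 13 of 21 were called higher, against 10.6%, 6.7% and 11.6% of all tested miRNAs. In E6.5 Exe 7, 5 and 4 of 14 were (4.26%, 3.46% and 5.05% of all), and 11, 14 and 13 of the 14 had a positive log2 fold change. In DKO;*Dnmt*-null SC embryos 20 of 20 were called higher, against 15.9% of all. mmu-miR-465a-3p, at the 5′ end of the group, was at 266 ± 132 CPM in E7.5 Epi controls (SD, n = 3) and 2902 ± 507 CPM in *Dnmt3a/3b*-DKO (n = 4). Its sequence is identical to those of *miR-465b-3p* and *miR-465c-3p*, so the 3 are not separate measurements:
*miR-465a-3p*: gAUCAGGGccuuucuaaguaga
Few other X-linked miRNAs were called higher. Of 50 tested in E7.5 Epi, 1, 2 and 2 were called higher, against 13.5%, 12.9% and 19.9% of all tested miRNAs. Called lower were 12, 2 and 23, against 11.5%, 4.91% and 20.6%. Their medians were −0.52, −0.02 and −0.73. The ones called higher were *miR-3473a* (*Dnmt1*-KO and *Dnmt*-null), *miR-672-5p* (*Dnmt3a/3b*-DKO and *Dnmt*-null) and *miR-2137* (*Dnmt3a/3b*-DKO). The 10 other germline miRNAs on the list, such as *miR-34b* and *miR-34c* arms, had 3 tested in E7.5 Epi and 0 called higher in the mutants, and *miR-34b-3p* fell by 1.17 in *Dnmt*-null (adjusted p = 0.0152). In E7.5 Exe 2 were tested and 0 called against the controls (edgeR, unadjusted p below 0.05). In *Dnmt*-null SC embryos 1 of 2 was called higher than in WT, *miR-34c-5p* at 1.47 (adjusted p = 0.251). In DKO;*Dnmt*-null SC embryos *miR-34b-3p* was higher by 1.0 (adjusted p = 0.00296) and *miR-449a-5p* lower by 1.83 (adjusted p = 0.112), of 4 tested. In Mir-6KO;*Dnmt*-null SC embryos 0 of 3 were called, with a median of 1.19. No test of these lists against one another was made.

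**Figure D5:**
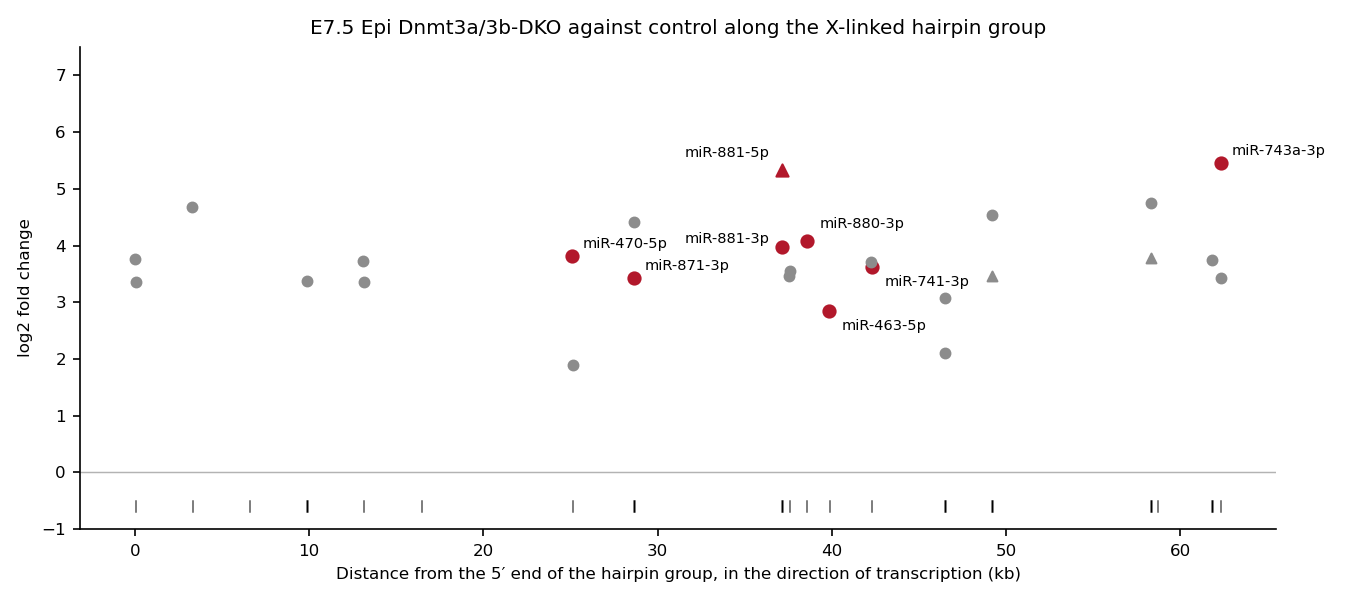
Log2 fold change in E7.5 Epi *Dnmt3a/3b*-DKO of each tested arm against its distance (kb) from the 5′ end of the group of 19 hairpins, in the direction of transcription; red points are members, grey points other arms, triangles lower bounds and ticks hairpins. The 8 members lie between 2.85 (*miR-463-5p*) and 5.45 (*miR-743a-3p*), with *miR-881-5p* at its lower bound, and no tested arm is below 0.

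Across the 62 Exe and Epi libraries, the miRNAs whose log2 CPM followed *miR-470-5p*, the member with the most counts, were from the cluster. Among 1102 miRNAs the 5 closest outside the members were *miR-465a-3p*, *miR-465c-3p* and *miR-465b-3p* (Pearson's r = 0.927 each), *miR-878-3p* (0.854) and *miR-871-5p* (0.839). Of the members, *miR-871-3p* was closest (0.955), followed by *miR-741-3p* (0.919) and *miR-880-3p* (0.871), and *miR-463-5p* was the least alike (0.364). The rarer members were less alike than the abundant ones, and 15 of the 20 miRNAs with the highest r were arms of the cluster. Both lists hold *miR-465a-3p*, *miR-465b-3p* and *miR-465c-3p*, which have identical sequences and are not separate measurements. The libraries share depth and genotype, so these values are a description of the pattern.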

How the data were processed

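Small RNA of natural embryos, SC embryos and AG-haESCs was measured in 91 libraries. The authors trimmed reads with fastp 0.20.1, used Bowtie 1.2.1.1 to map them (GRCm38), and deposited raw counts per mature miRNA (miRBase release 21, with 2 nt of freedom at the 3′ end), 88 libraries in a table of 1504 miRNAs and 3 in a table of 895. The authors' tests used DESeq2 1.30.1 and called a change above 0.5 in size on the log2 scale with p below 0.05. Libraries started from picograms of RNA that was transcribed in vitro and amplified by PCR, with no molecular identifiers described, so counts are not independent molecules, and the limit set by a count of 0 (3 counts) covers counting error only. An earlier copy of the main table repeated its 88 columns, and 2 further columns there, of no sample here, were not used.

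Here counts were tested with edgeR 4.0.16 (quasi-likelihood, TMM normalization, filterByExpr with a count minimum of 10, R 4.3.3), with all genotypes of a tissue and stage in 1 model, and with the same thresholds. Controls of both tissues and stages were fitted in 1 model, and the interaction model held all natural embryo groups. The filter and spread of those tests therefore also drew on E6.5 Epi libraries. Adjusted p-values are Benjamini-Hochberg over all miRNAs tested. A standard error is the log2 fold change divided by the root of its F value. CPM used the total of all miRNA counts. The 3 libraries of the second table were fitted with SC DKO on the 895 shared miRNAs. Alternatives were RLE size factors, DESeq2 1.42.0, other filters, adjusted p, only the groups compared, a replicate block and leaving out each library. The scripts were tested on simulated counts. Positions come from RefSeq and GENCODE M21 (both GRCm38). Replicates were checked as separate libraries: over 118 pairs the chi-square per degree of freedom was at least 4.20. The named miRNAs are the 8 members, with counts for the other arms of the cluster, other germline and other X-linked miRNAs, and for 5 markers each of epiblast and trophoblast. The members and lists were chosen with earlier results of these data known. The genotype of the 408 line is not in the labels, and it was not compared.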

Additional observations from a re-analysis of the deposited data

Results flagged for a closer look

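In groups of 4 libraries, the library farthest from the rest was checked against Dixon's criterion, and 7 of 126 combinations of a group and a value passed it (14 groups, each with the 8 members and their summed share), where chance alone passes about 1 in 20. In E6.5 Epi controls *miR-881-5p* was at 0 CPM in replicate 1 and near 7 CPM in the others, which were 2, 3 and 3 counts. Those controls had entered the choice of the members, so that pass is not read as a result. In E7.5 Exe *Dnmt3a/3b*-DKO *miR-881-5p* was at 93.9 CPM in replicate 4. *miR-880-3p* was at 1165 CPM in E6.5 Exe control replicate 2, and *miR-741-3p* at 3497 CPM in E6.5 Exe *Dnmt*-null replicate 3, which also had the lowest member share of its group, 0.953%. E6.5 Exe *Dnmt1*-KO replicate 1 stood out for *miR-743a-3p* (489 CPM) and *miR-470-5p* (6881 CPM).

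The change between *Dnmt3a/3b*-DKO and control was larger in E7.5 Epi than in E7.5 Exe by the interaction test for *miR-880-3p* (2.38 on the log2 scale), *miR-741-3p* (1.98), *miR-743a-3p* (3.8) and *miR-470-5p* (2.15), and in *Dnmt*-null for *miR-743a-3p* (3.91). The E7.5 Epi controls are low in all of these comparisons.

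The 408 AG-haESCs entered no comparison because their genotype is not in the labels. They had the highest member share of the cell lines, at 2.36%, 2.30% and 2.33%. Mean levels were 11465 CPM for *miR-741-3p*, 5466 CPM for *miR-871-3p*, 4110.0 CPM for *miR-470-5p*, 1402 CPM for *miR-880-3p*, 391 CPM for *miR-743a-3p*, 310.0 CPM for *miR-881-3p*, 87.0 CPM for *miR-463-5p* and 54.6 CPM for *miR-881-5p*.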

How the results depend on the processing

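Over the 9 comparisons of mutant with control embryos that were tested, 50 member values were called higher and 0 lower. The count was 50 with RLE size factors, 51 with DESeq2, 51 with no filter, 49 with a mean of at least 10 counts, 50 with only the compared groups, 34 by adjusted p, and 47 to 52 when 1 library was left out. In these comparisons 3.46% to 19.9% of all tested miRNAs were called higher. The mutants of a tissue and stage share its controls and the members lie in 1 cluster, so these values are not separate results. *Dnmt*-null against the other mutants had 2 higher calls, 0 by adjusted p and 1 to 3 without 1 library. SC embryos had 21, 12 by adjusted p and 18 to 24 without 1 library, where 3.69% to 15.9% of all tested miRNAs were called higher. Among control tissues and stages, E7.5 Exe against E7.5 Epi had 7 higher and 0 lower, and E7.5 against E6.5 Exe had 0 of either. Comparisons with E6.5 Epi controls are a description only and are not counted here. AG-haESCs had 7 lower (7 to 8) and 0 higher, but 1 higher with RLE size factors and 1 with DESeq2. Of 96 called member values none changed sign, 29 lost the call by adjusted p and 17 in at least 1 refit without a library. The 96 include 5 higher and 4 lower values from comparisons with E6.5 Epi controls. Those are no support, since these controls had entered the choice of the members. The labels do not pair the libraries, and in no model did every same-numbered pair of deviations correlate above 0.1: 0 of 19 pairs did in E7.5 Epi (−0.14 to 0.086), 1 of 24 in E7.5 Exe, 11 of 24 in E6.5 Epi (up to 0.537), 5 of 9 in E6.5 SC embryos (up to 0.425) and 6 of 24 in E6.5 Exe. With the replicate block 49 mutant values were called higher, SC embryos had 21, and 3 of the 96 lost the call. Among the 20 miRNAs most like *miR-470-5p*, 15 were cluster arms, 12 with a prior count of 0.5 and 14 by Spearman's rho. Each of these counts holds the identical *miR-465* 3p arms as separate arms. At the lowest E6.5 totals 3 counts are 66.3 CPM, above the mean level of both *Mir881* arms and *miR-463-5p* in most groups.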

Other observations

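Outside the X-linked cluster, the miRNAs whose levels were most like *miR-470-5p* over the 62 Exe and Epi libraries were *miR-409-5p* (Pearson's r = 0.719), *miR-485-3p* (0.669), *miR-409-3p* (0.598), *miR-127-3p* (0.589) and *miR-434-3p* (0.587), named after their values were seen. All 5 come from the imprinted *Dlk1-Dio3* region of another chromosome. Their libraries share tissue, genotype and depth.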
